A study of Mus musculus with 34 samples.

Results

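The mouse CpG island array carries probes that its designers placed in no gene, and the islands made of such probes are described here. Neighbouring probes were joined into islands wherever the gap between them was at most 500 bases, and an island needed at least 3 probes. Of 13238 islands outside chromosomes X and Y, 1738 (13.1%) had Unknown as the most common description of their probes. In 1715 of these every probe was described as Unknown. The 1738 islands hold 11615 probes, with a median of 6 probes (3 to 42) and a median span of 634 bases (213 to 5401). They lie on all 19 autosomes and make up between 8.09% (chromosome 11) and 18.9% (chromosome 18) of a chromosome's islands. Another 85 islands described as Unknown lie on X or Y and were left out.

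DNA methylation was measured by methylated DNA immunoprecipitation (mDIP), in which sheared DNA is bound by an antibody to 5-methylcytidine and hybridised in Cy5 against the input DNA in Cy3. The adult set comprised 16 arrays, 2 for each of colon, pancreas, brain, kidney, liver, lung, muscle and spleen, from C57Bl/6 mice of 3 months and of both sexes. Post-implantation embryos of 8.5, 9.5, 10.5, 11.5 and 12.5 days gave 1 array each (embryos 1 to 5 in this order). Undifferentiated embryonic stem (ES) cells were the lines EB5, J1 and TT2. ES cells differentiated in vitro were embryoid bodies from TT2, cells treated with retinoic acid (line TT2 by the label, J1 by the methods), 2 arrays of endoderm and 1 of mesoderm. Endoderm and mesoderm came from an EB5 derivative that carries reporters in Gsc and Sox17, were grown with Activin A and were sorted by these reporters. There were 2 arrays of teratomas (line J1 by the label, D3 and C4 by the methods), which are tumours formed after ES cells are injected under the skin of NOD-SCID mice, so that their DNA can include host cells. Sorted β cells, the β cell line Min6 and the α cell line αTC had 1 array each. By the study's supplement the β cells were sorted with antibodies to insulin from islets of transgenic Pdx1-GFP mice. Those mice had a range of ages from 2 months up, unlike the adult set of 3 months. The sources used here do not say whether replicate arrays came from separate animals or cultures, so the p-values below measure the spread between arrays, which may be partly technical. In comparisons between sets each set was 1 group. The spread therefore also holds differences between tissues, embryo ages, ES lines and ways of differentiation. Endoderm and mesoderm arrays from the same EB5 derivative were counted as separate. All comparisons with adult tissue share the 16 adult arrays.

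CpG islands are stretches rich in CpG dinucleotides, and most of those at promoters stay unmethylated in normal cells. Islands far from annotated promoters, often called orphan islands, can act as promoters of unannotated transcripts or lie in enhancers, and they are more often methylated in a tissue-specific way than promoter islands. In embryonic cells many islands near developmental regulators are covered by Polycomb complexes, which keep genes silent, and such islands are known as sites of de novo methylation in cultured and cancer cells.

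The value of an island is its island methylation score (IMS), the mean over its probes of the log10 ratio of bound over input DNA, expressed as a Z-score over all probes of the same array. An IMS of 0 is thus the mean of an array. The score gives the distance from that mean in SDs of the array's probes, not a percentage of methylated cytosines. It therefore also depends on how widely the log ratios of an array spread. In bulk DNA, more methylated cells and more methylation per cell cannot be told apart. An IMS below 0 was taken as unmethylated and one above 0.75 as methylated, the thresholds the study set on scores by probe melting temperature, which these scores are not. Groups were compared island by island with limma over all 13238 islands, with Benjamini-Hochberg adjusted p under 0.05 as the threshold.

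The description Unknown did not mean that an island lay far from every transcript. Each probe also lists its distance to the nearest transcript start known when the array was designed, and 690 of the 1738 islands (39.7%) lay within 1 kb of one, 643 of them within 200 bases. Of these 690 starts, 563 were Ensembl transcripts, 127 were cDNA clones of the Mammalian Gene Collection and 0 were RefSeq transcripts. A further 194 islands (11.2%) lay 1 to 10 kb from a listed start, and 854 (49.1%) over 10 kb. The nearest probe described by a gene was within 10 kb for 62 islands, and the median gap to it was 66193.5 bases. The islands are therefore called islands described as Unknown below, in 3 distance bands. Those within 1 kb of a listed start had a median of 7 probes over 814.5 bases, and those over 10 kb had 5 probes over 539 bases.

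Signal and batch varied between arrays. There were 23 slides and 16 scan days for 34 arrays. Input spots were 3.07 to 7.34 times as bright as their background and bound spots 1.54 to 5.59 times, and how precise a group's mean is depends on its number of arrays. Replicate arrays of a tissue correlated across the 1738 islands with r from 0.832 (lung) to 0.960 (colon). The array labelled J1 stood apart from the other undifferentiated ES arrays, with r = 0.832 to EB5 and 0.821 to TT2 against 0.895 between EB5 and TT2. Its r to the mean of the adult arrays was 0.964, where EB5 gave 0.844 and TT2 0.834, and where each adult array against the mean of the other 15 gave 0.894 to 0.964. Its log ratios correlated at 0.113 with its own column of the deposited value table, where the other arrays gave 0.894 to 0.991, so whether these values are those of J1 ES cells is not settled. The tests on undifferentiated ES cells are therefore given with and without it. Positions are those listed in 28 of the 34 files, which name no genome build. The other 6 files list other positions for the same probes.

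Some gene-to-gene intervals with runs of these islands also hold microRNA genes. The 2 given here come up again at the end, and the distance from a run to such a gene was not measured. By the gene order of RefSeq (GRCm38.p6), the interval from Polg to Rhcg on chromosome 7 holds Mir9-3, a gene of miR-9, which acts in neural progenitors, and the interval from Wnt7b to Ppara on chromosome 15 holds Mirlet7c-2 and Mirlet7b, genes of the let-7 family, which acts in developmental timing. The mature sequences are shown because they name the transcripts that lie in these intervals, with the seed (bases 2 to 8) in capitals. All lie on the plus strand in GRCm38.p6, whose positions are not those of the array.
miR-9-5p, chr7:79505279-79505301: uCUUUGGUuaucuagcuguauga
miR-9-3p, chr7:79505318-79505339: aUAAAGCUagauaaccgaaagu
let-7c-5p, chr15:85706616-85706637: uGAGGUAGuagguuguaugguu
let-7c-2-3p, chr15:85706664-85706685: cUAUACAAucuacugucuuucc
let-7b-5p, chr15:85707325-85707346: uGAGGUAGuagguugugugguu
let-7b-3p, chr15:85707379-85707400: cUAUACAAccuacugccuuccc
The 5p arms of both let-7 genes share 1 seed, and so do their 3p arms. Neither miR-9 arm shares a seed with the others.

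In adult tissue most islands described as Unknown had low or middling scores, and a minority were among the most methylated on the array. Of the 1738, 373 (21.5%) lay below 0 on every adult array, against 30.6% of all islands. On every adult array 149 (8.57%) lay above 0.75, against 7.4% of all islands, and 1216 (70.0%) met neither threshold, against 62.0%. The counts varied with the distance from a listed start, which was not tested. Islands below 0 on every adult array were 200 of the 690 within 1 kb (29%), 39 of the 194 at 1 to 10 kb (20.1%) and 134 of the 854 over 10 kb (15.7%). Those above 0.75 on every adult array numbered 26, 31 and 92. The median adult mean was -0.203 within 1 kb, -0.167 at 1 to 10 kb and -0.0665 over 10 kb, against -0.221 over all islands. Across the 1738 islands, the adult mean had a Spearman correlation of 0.22 with the distance to a listed start and -0.27 with the number of probes. These are descriptions of islands measured on the same arrays, and the part of probe number in them was not tested.

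Islands with the highest adult means sat far up the scale in every tissue. At chr12:108363136-108365209, between Vrk1, a nuclear kinase gene, and A130014H13Rik, the 16 adult arrays had a lowest, median and highest IMS of 2.98, 3.65 and 4.35, with a mean of 3.65 ± 0.416 (SD). At chr1:120664894-120665641, which is 31 bases from an Ensembl start between Tcfcp2l1 and Inhbb, they gave 2.81, 3.5 and 4.23, with a mean of 3.54 ± 0.382. Both therefore stood above 0.75 on each adult array. The islands with the lowest adult mean were chr8:79798106-79798446, between Mcm5 of the replicative helicase and Arhgap10, at -0.86 ± 0.375, chr2:125316196-125316804, between Fbn1, which encodes fibrillin, and Eid1, at -0.842 ± 0.283, and chr4:136660179-136660757, between the GTPase gene Cdc42 and Ldlrad2, at -0.831 ± 0.155. The median SD of an island over the 16 adult arrays was 0.2245, and 114 islands (6.56%, against 5.67% of all) had an SD over 0.5.

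On an array of adult tissue, 10.6% to 16.1% of the islands described as Unknown lay above 0.75, with a mean of 13.96% ± 1.56 (SD, n = 16). Embryos gave 12.36% ± 0.50 (n = 5), undifferentiated ES cells 15.2% (EB5), 14.3% (labelled J1) and 14.2% (TT2), and teratomas 13.9% ± 0.45 (n = 2). ES cells differentiated in vitro stood higher, at 22.69% ± 3.49 (n = 5). Within that group the array treated with retinoic acid had 16.8% and the other 4 arrays had 22.4% to 25.6%, so that each differentiated array lay above the highest adult array. Among the single arrays, sorted β cells had 15.6%, Min6 26.2% and αTC 32.0%. Over all 13238 islands the share rose too, from 11.15% ± 0.95 in adult tissue to 15.76% ± 1.86 in differentiated ES cells. The highest adult array had 12.44% of all islands above 0.75 and the lowest differentiated one 12.49%. Over all islands sorted β cells had 11.9%, Min6 19.6% and αTC 23.2%. These shares were not tested, and they were higher in differentiated ES cells in both outer distance bands. Within 1 kb of a listed start, the share above 0.75 was 6.57% ± 0.93 in adult tissue and 11.22% ± 2.24 in differentiated ES cells. Over 10 kb it was 18.15% ± 2.13 in adult tissue, 21.3% in EB5, 18.7% on the array labelled J1, 19.7% in TT2 and 30.09% ± 4.23 in differentiated ES cells.

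**Figure D1:**
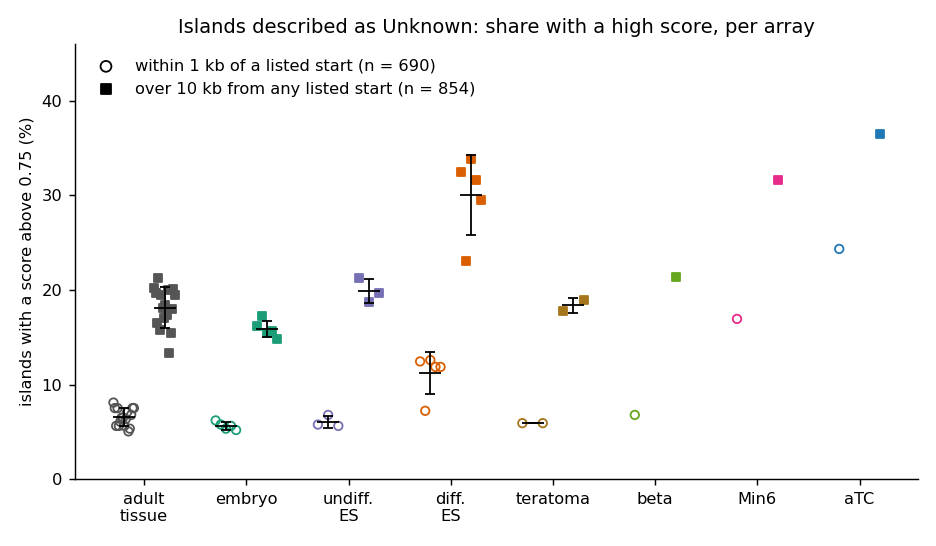
Percent of islands described as Unknown with an IMS above 0.75 (y axis) on each of the 34 arrays, by group (x axis). Open circles are the 690 islands within 1 kb of a listed transcript start and squares the 854 over 10 kb, and black bars give the mean and SD of a group with more than 1 array. The squares of the 5 differentiated ES arrays lie between 23.07% and 33.84%, all above the 13.35% to 21.31% of the adult arrays. Over all islands, which are not drawn, the ranges were 12.49% to 16.91% and 9.50% to 12.44%.

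The comparison of differentiated ES cells with adult tissue asked at which islands the mean IMS differed between them. An island called higher in differentiated ES cells can therefore be methylated in adult tissue as well. Of the 1738 islands, 386 were higher and 168 lower in differentiated ES cells by limma, together 554 (31.9%), where 23.7% of all islands passed the test. After normexp background correction 301 were higher and 44 lower, given without the share of all islands. The higher calls were 22.2% of the 1738 islands, where 14.9% of all islands were called higher, and the lower calls were 9.67%, where 8.8% of all islands were called lower. The higher calls were unevenly spread over the distance bands, at 108 of 690 within 1 kb (15.7%), 47 of 194 at 1 to 10 kb (24.2%) and 231 of 854 over 10 kb (27.0%). The lower calls were 64 (9.28%), 23 (11.9%) and 81 (9.48%). The median difference in IMS was 0.0404 over the 1738 islands and -0.00391 over all islands. It was -0.000620 within 1 kb and 0.102 over 10 kb. The differences between bands were not tested.

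**Figure D2:**
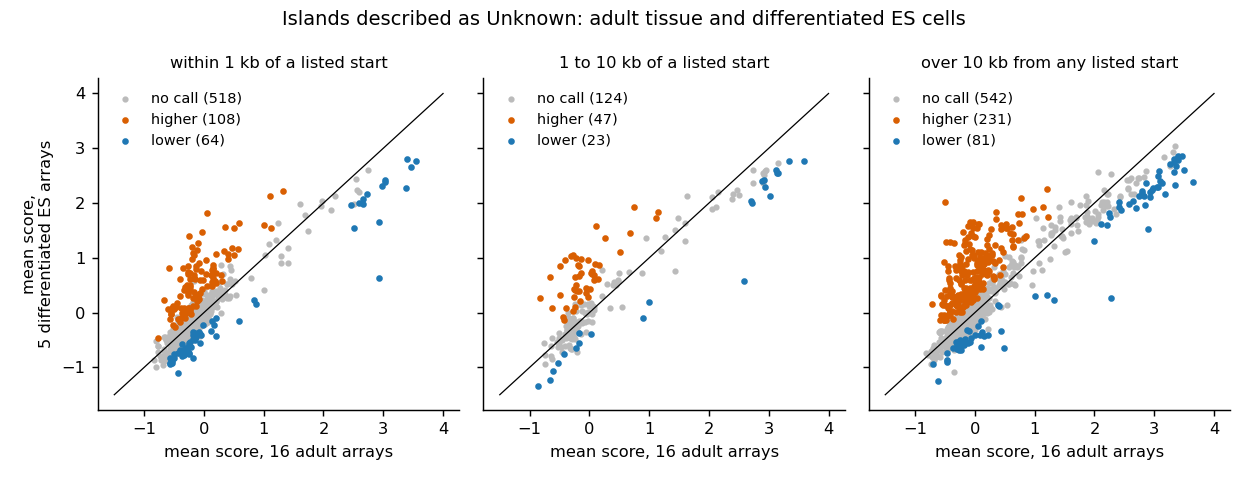
Mean IMS over the 16 adult arrays (x axis) and over the 5 differentiated ES arrays (y axis) for each island described as Unknown, in 3 panels by distance from a listed transcript start. Points are coloured by the limma call at an adjusted p under 0.05, with 108, 47 and 231 islands higher and 64, 23 and 81 lower in differentiated ES cells.

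The island with the largest gain lay at chr5:120057099-120057496, 113 kb from the nearest array probe of Tbx3, 70.0 kb from that of Tbx5 and 37805 bases from a listed start. Tbx3 and Tbx5 are T-box transcription factor genes of limb and heart. The adult arrays had a lowest, median and highest IMS of -0.857, -0.57 and 0.457, the highest being lung 2. The differentiated arrays were at 1.93 in embryoid bodies, 2.74 after retinoic acid, 1.9 and 1.59 in endoderm and 1.95 in mesoderm. All 5 lay above every adult array, and the difference was 2.53 ± 0.284 (SE, adjusted p = 1.02e-07). Embryos were at -0.392, -0.852, -0.769, -1.01 and -0.711, so that the difference of differentiated ES cells from embryos was 2.77 ± 0.351 (SE, adjusted p = 1.77e-06). Undifferentiated EB5 and TT2 were already at 2.26 and 2.27, while the array labelled J1 was at -0.809. On the slides that held arrays of both groups, endoderm 2 exceeded pancreas 1 by 2.17 and embryoid bodies exceeded brain 2 by 2.46. The bound signal was well above background in 73.8% of adult probe readings here and in every differentiated one. The islands of the flanking genes started from higher adult levels. That of Tbx3 had an adult mean of 1.4 and a differentiated mean of 1.3 and was not called (adjusted p = 0.858). That of Tbx5 was called higher, with means of 1.25 and 1.92 (adjusted p = 0.00648).

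Another 4 islands complete the 5 with the largest gain. At chr5:139074535-139075162, 78 bases from an Ensembl start between BC004044 and Pdgfa, which encodes a growth factor ligand, the adult arrays had -0.388, -0.0763 and 1.22 as lowest, median and highest. The differentiated arrays were at 2.0, 1.82, 2.11, 1.67 and 1.53 (in the order embryoid bodies, retinoic acid, endoderm 1, endoderm 2, mesoderm, used from here on), each above the highest adult array, which was brain 1. The difference was 1.78 ± 0.20 (SE, adjusted p = 1.03e-07). The undifferentiated lines were within the adult range there, at 0.576 (EB5), 0.268 (J1) and 1.16 (TT2). At chr1:74750041-74750417, 13.2 kb from Wnt10a, a Wnt ligand gene, and 37.6 kb from Cdk5r2, which encodes an activator of the kinase Cdk5, adult arrays gave -1.16, -0.503 and 0.00227 and differentiated arrays 1.85, -0.411, 1.52, 1.63 and 1.82. The retinoic acid array thus stayed within the adult range while the other 4 lay above it, and the difference was 1.77 ± 0.24 (SE, adjusted p = 1.87e-06). Undifferentiated EB5 was also above the adult range, at 0.444, while J1 and TT2 were within it, at -0.323 and -0.336.

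At chr5:101887911-101888764, 10.4 kb from Nkx6-1, a homeobox gene of β cells and the ventral neural tube, adult arrays gave -0.588, -0.131 and 0.618 and differentiated arrays 1.88, 0.413, 1.95, 2.18 and 1.84. Here too the retinoic acid array overlapped the adult range, and the difference was 1.74 ± 0.20 (SE, adjusted p = 1.34e-07). Undifferentiated EB5 was above the adult range, at 1.0, while J1 and TT2 were within it, at 0.0357 and 0.48. The island inside Nkx6-1 itself had means of 0.0297 in adult tissue and -0.0721 in differentiated ES cells. At chr5:120562914-120563390, 125 kb from Lhx5, a LIM-homeobox gene of the forebrain, and 186 kb from Rbm19, adult arrays gave -0.752, -0.387 and -0.00936 and differentiated arrays 1.55, 0.668, 1.28, 1.45 and 1.52. No differentiated array overlapped the adult range, and the difference was 1.71 ± 0.117 (SE, adjusted p = 1.32e-11). The undifferentiated lines were at -0.388 (EB5), -0.391 (J1) and -0.0811 (TT2). In this island EB5, J1 and TT2 therefore lay within the adult range.

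Of the islands that were lower in differentiated ES cells, the largest drop was at chr17:39451519-39454741, an island of 21 probes 54 bases from an Ensembl start. The flanking gene probes, of Olfr94 and 9130008F23Rik, are 2650 and 889 kb away, and the RefSeq interval between these genes holds 98 genes, among them Rn18s-rs5, a pseudogene related to 18S ribosomal RNA (looked up after the values were seen). Adult arrays gave 2.08, 2.98 and 3.7 and differentiated arrays 1.04, 0.481, -0.285, 0.934 and 0.953. The groups did not overlap, and the difference was -2.31 ± 0.328 (SE, adjusted p = 3.95e-06), with an adjusted p of 0.0642 after normexp background correction. At chr7:105635872-105636687, 17.5 kb from Taf10, which encodes a subunit of the general transcription factor TFIID, and 47.7 kb from the mitochondrial ribosomal protein gene Mrpl17, adult arrays gave 1.63, 2.66 and 3.85 and differentiated arrays 0.633, 0.0063, 0.342, 0.832 and 1.11, a difference of -2.0 ± 0.321 (SE, adjusted p = 2.48e-05). At chr12:18551907-18552369, between Hpcal1 and Itgb1bp1, adult arrays gave 1.24, 2.44 and 2.83 and differentiated arrays 0.326, -0.587, 0.745, 0.353 and 0.535, a difference of -2.0 ± 0.28 (SE, adjusted p = 3.35e-06). In all 3 islands every differentiated array lay below the lowest adult array, and both teratomas lay above every differentiated array, with 2.29 and 2.33 at the first, 2.3 and 2.65 at the second and 2.28 and 2.85 at the third. Being below the lowest adult array was not particular to cultured cells. Sorted β cells lay below it at all 3, at 0.84, 0.33 and 1.07, and so did embryo 1, at 2.0, 0.33 and 1.12. At the second island embryos 2 and 3 did too, at 0.897 and 1.54. The remaining embryo values lay within the adult range.

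**Figure D3:**
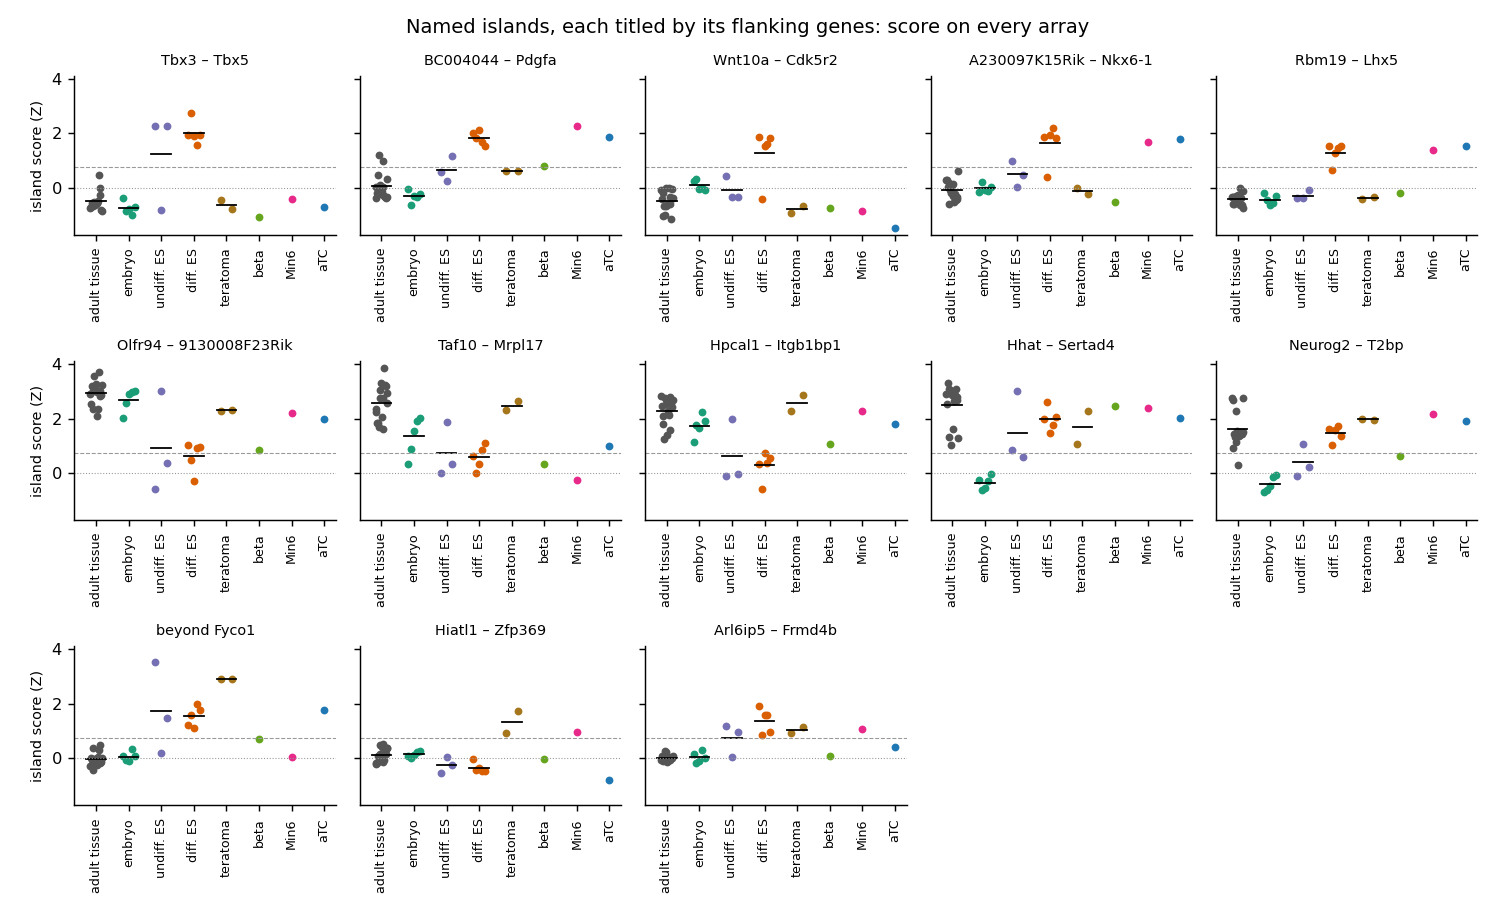
IMS (y axis) of 13 named islands on every array, each panel titled by the genes on either side and split by group (x axis). Points are arrays, short black lines are group means, the dotted line is 0 and the dashed line 0.75. In the top row the differentiated ES arrays stand above adult tissue and embryos, with the retinoic acid array low at Wnt10a to Cdk5r2 (-0.411) and at Nkx6-1 (0.413), and in the first 3 panels of the middle row they stand below adult tissue.

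Of the 23 slides, 2 held a differentiated ES array beside an adult one, and the calls were set against these pairs. Of the 386 higher islands, 349 were also higher in both pairs that share a slide (endoderm 2 with pancreas 1, embryoid bodies with brain 2), where 681 of the 1738 islands (39.2%) had that direction. Of the 168 lower islands, 152 were lower in both pairs, where 583 (33.5%) had that direction. These arrays also entered the test. With the slide as a block 374 islands were called, and with the scan day 391, given without the share of all islands.

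The islands of neighbouring genes shared the change in a minority of cases. The nearest island described by a gene was itself called higher for 64 of the 386 higher islands (16.6%), where 12.5% of the nearest gene islands of all 1738 were called higher, and it was called lower for 22. For the 168 lower islands it was called lower for 20 (11.9%, against 7.83%). By the list of the nearest gene, 90 islands lay next to genes of developmental transcription factors, such as the Hox, Pax, Sox and T-box families. Of these, 29 were higher (32.2%) and 3 lower (3.33%), with a median difference of 0.195. Next to zinc finger Zfp genes, 11 of 35 islands were higher (31.4%) and 4 lower. Of 8 islands next to imprinted genes, which are expressed from 1 parental allele, 2 were higher and 1 lower, and their median adult mean was 0.649. Next to clustered histone genes there was 1 island, which was not called, and next to clustered protocadherins 0. Of the 1604 islands on no list, 344 were higher (21.4%) and 160 lower, with a median difference of 0.034. These lists were not tested against each other.

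Some islands were in the unmethylated class in adult tissue and in the methylated class in culture. Of the 373 islands below 0 on every adult array, 21 crossed 0.75 on at least 1 differentiated ES array, a count with no test. With thresholds of -0.25 and 0.5 it was 2 of 68, given without the share of all islands. At the thresholds of 0 and 0.75, 120 of the 4053 islands of any kind below 0 on every adult array crossed. The 21 make up 1.21% of the 1738 islands, where 0.906% of all islands did so. On at least 2 arrays 12 islands crossed 0.75, on at least 3 arrays 8 and on at least 4 arrays 4, and 0 did so on all 5. By array there were 11 in embryoid bodies, 0 after retinoic acid, 15 and 10 in endoderm and 9 in mesoderm. Of the same 373 islands 1 crossed 0.75 in embryo 2 and 0 in the other 4 embryos, 2 in EB5 and 0 in the arrays labelled J1 and TT2, and 0 in both teratomas. Of the 4053 islands of any kind, 6 did so in an embryo, 15 in an undifferentiated ES array and 6 in a teratoma. These are 0.0453%, 0.113% and 0.0453% of all islands. Of the 373, 1 crossed 0.75 in sorted β cells, 30 (8.04%) in Min6 and 46 (12.3%) in αTC. Of the 4053 islands of any kind, 4.42% and 6.39% were above 0.75 in Min6 and αTC. The reverse, from above 0.75 on every adult array to below 0 on a differentiated ES array, was seen in 3 of the 1738 islands, where 0.151% of all islands did so.

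The 4 islands above 0.75 on 4 arrays stayed below 0.75 after retinoic acid. They were the island between Rbm19 and Lhx5 given above and 3 others. Between Ndufa12 and Tmcc3, at chr10:93741602-93741980, the differentiated arrays were at 1.18, 0.136, 1.64, 2.0 and 1.43, against a highest adult array of -0.0484 (adjusted p = 2.83e-08). Between Msrb2 and Ptf1a, a basic helix-loop-helix factor of the pancreas and cerebellum, at chr2:19348520-19350012, they were at 0.817, 0.292, 1.24, 1.31 and 1.01, against -0.00833 (adjusted p = 1.72e-07). Between Etv5, an ETS transcription factor gene, and Dnajb11, at chr16:22572090-22572494, they were at 1.02, 0.301, 0.764, 1.23 and 0.961, against -0.0424 (adjusted p = 8.60e-08). The islands above 0.75 on 3 arrays lay between Smad2 and Ier3ip1, Mtx2 and Hnrpa3, Arhgef10 and Csmd1, and next to Dmrta2. In the 3 with endoderm 1, endoderm 2 and mesoderm as the high arrays (Smad2, Mtx2 and Arhgef10), embryoid bodies stayed at 0.396, 0.22 and -0.0744. The island near Cdc42, with one of the lowest adult means, was above 0.75 in embryoid bodies and endoderm 2, with differentiated arrays at 0.816, -0.527, -0.0469, 0.819 and 0.293 and a difference of 1.1 ± 0.137 (SE, adjusted p = 4.95e-07). Islands in this paragraph other than those at Lhx5 and Cdc42 were named after their values were seen.

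Differentiated ES cells also differed from embryos. By limma 342 islands were higher and 124 lower in differentiated ES cells, where 12.3% and 9.59% of all islands were called, 21.8% in all. The higher calls were 93 within 1 kb (13.5%), 34 at 1 to 10 kb (17.5%) and 215 over 10 kb (25.2%). With the slide as a block 22 islands were called and with the scan day 74. Set against the undifferentiated lines, differentiated ES cells had 120 higher and 45 lower islands, where 3.79% and 2.09% of all islands were called, 5.88% in all. Of the higher ones, 34 lay within 1 kb (4.93%), 13 at 1 to 10 kb (6.7%) and 73 over 10 kb (8.55%). Without the array labelled J1, 72 were higher and 21 lower, and the higher ones were 16 (2.32%), 15 (7.73%) and 41 (4.8%). For this and the other alternative fits in this paragraph, the share of all islands called is not given here. Their counts therefore compare only with other counts of these islands. With the value table the balance turned, with 89 higher and 109 lower of 687 islands, while normexp gave 14 and 3 and centred log2 ratios 43 and 0. The count was 165 in all, and it became 276 without the retinoic acid array, 93 without the array labelled J1, 94 without EB5 and 105 without endoderm 2. A block for the slide left 39, and when only the 8 ES arrays were fitted it was 0, with 328 at an unadjusted p under 0.05. Both comparisons use the differentiated ES arrays of the one with adult tissue.

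Between the undifferentiated lines and adult tissue, 24 islands were higher in the lines and 24 lower, where 1.09% and 1.45% of all islands were called, 2.54% in all. Without the array labelled J1, 111 were higher and 55 lower, where 4.8% and 3.97% of all islands were called, 8.77% in all. Of these, 32, 13 and 66 of the higher islands lay within 1 kb, at 1 to 10 kb and over 10 kb (4.64%, 6.7% and 7.73%). Without EB5 or without TT2, 0 islands were called, with 185 and 168 at an unadjusted p under 0.05 by limma. A block for the scan day left 0 calls, with 80 at an unadjusted p under 0.05. The counts without EB5, without TT2 and with this block are given without the share of all islands. The largest differences were in islands already named for differentiated ES cells. At the island between Olfr94 and 9130008F23Rik the lines were at -0.601 (EB5), 3.0 (J1) and 0.36 (TT2), with the adult arrays between 2.08 and 3.7. The difference was -2.01 ± 0.402 (SE, adjusted p = 0.00857), and -3.05 (adjusted p = 1.05e-07) without J1. At the island between Taf10 and Mrpl17 the lines were at -0.00585 (EB5), 1.89 (J1) and 0.323 (TT2), with a difference of -1.85 ± 0.395 (SE, adjusted p = 0.0115), and -2.42 (adjusted p = 2.78e-04) without J1. EB5 and TT2 thus lay below every adult array at both islands, while the array labelled J1 lay within the adult range. Both calls are lost without EB5 or TT2. On the 1 slide that holds EB5 and an adult array (pancreas 2), 21 of the 24 higher islands were higher and all 24 lower islands were lower in EB5, where 1084 of the 1738 islands (62.4%) were higher and 654 (37.6%) lower. EB5 also entered the test.

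**Figure D4:**
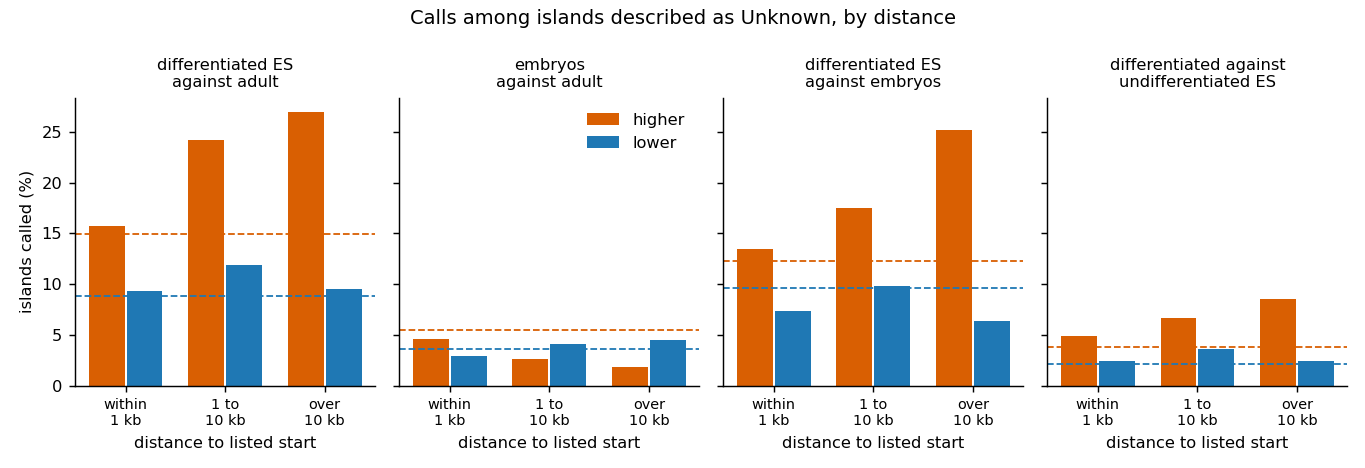
Percent of islands described as Unknown called higher or lower by limma (y axis) in the 3 bands of distance from a listed transcript start (x axis), for 4 comparisons. Dashed lines give the percent of all 13238 islands called in that direction. Higher calls in differentiated ES cells against adult tissue go from 15.7% within 1 kb to 27.0% over 10 kb, while higher calls in embryos go from 4.64% to 1.87%.

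Embryos differed from adult tissue at fewer islands than differentiated ES cells did. Of the 1738, 53 were higher and 66 lower in embryos, together 6.85%, where 5.45% of all islands were called higher and 3.65% lower, 9.1% together. Higher calls were 32 within 1 kb (4.64%), 5 at 1 to 10 kb and 16 over 10 kb (1.87%), and lower calls were 20 (2.9%), 8 and 38 (4.45%). No embryo array shares a slide or scan day with an adult array, so the groups are linked across batches only through other arrays. With the slide as a block 1 island was called and with the scan day 0, with 112 and 91 at an unadjusted p under 0.05 by limma, and a random block for the slide left 49. About 5% of islands pass an unadjusted p under 0.05 when nothing differs. The counts with a block are given without the share of all islands.

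The largest drop in embryos was at chr1:194534271-194534625, 6 bases from an Ensembl start, 0.76 kb from an island downstream of Sertad4 and 62.4 kb from Hhat, the acyltransferase of Hedgehog ligands. Adult arrays gave 1.03, 2.83 and 3.32 as lowest, median and highest, and embryos 1 to 5 gave -0.25, -0.614, -0.572, -0.299 and -0.0512. The groups did not overlap, and the difference was -2.86 ± 0.34 (SE, adjusted p = 3.54e-06). Differentiated ES cells were at 1.99, 2.62, 1.46, 1.76 and 2.06, all within the adult range. With the slide as a block the difference was -3.05 (adjusted p = 0.684), and with the scan day -1.21 (adjusted p = 1.0). At chr3:127687344-127687803, 60.8 kb from Neurog2, a proneural transcription factor gene, adult arrays gave 0.281, 1.43 and 2.76 and embryos -0.699, -0.627, -0.497, -0.159 and -0.0881. Again no embryo reached the lowest adult array, and the difference was -2.03 ± 0.277 (SE, adjusted p = 2.02e-05). It was -2.49 (adjusted p = 0.519) with the slide as a block and -1.69 (adjusted p = 0.911) with the scan day. The input was well above background in 73.8% of adult and 64.0% of embryo probe readings of this island. The undifferentiated lines were at -0.128 (EB5), 1.07 (J1) and 0.233 (TT2), the teratomas at 1.99 and 1.96.

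The 3 islands with the largest gain in embryos overlapped the adult range. At chr8:10978434-10978760, between Lig4, the DNA ligase of end joining, and the collagen gene Col4a1, adult arrays gave 0.504, 1.04 and 2.79 and embryos 2.05, 2.53, 2.62, 2.55 and 2.05, a difference of 1.16 ± 0.334 (SE, adjusted p = 0.0254). It was 2.26 (adjusted p = 0.767) with the slide as a block but -0.00499 (adjusted p = 1.00) with the scan day. At chr5:144013726-144014102, between Usp42 and Eif2ak1, which encodes the heme-regulated kinase of translation initiation, adult arrays gave -0.0821, 0.724 and 2.33 and embryos 1.55, 1.56, 1.79, 1.62 and 1.87, a difference of 0.913 ± 0.26 (SE, adjusted p = 0.0229). The sign turned when the slide (-1.49) or the scan day (-0.178) was a block, and 0 of its 4 probes had an input well above background on every array. At chr19:47205025-47205324, between Pdcd11 and Neurl, adult arrays gave 0.339, 1.19 and 2.22 and embryos 1.75, 1.96, 2.07, 1.93 and 1.9, a difference of 0.77 ± 0.204 (SE, adjusted p = 0.0143), which was 0.795 with the slide (adjusted p = 0.838) and 0.748 with the scan day (adjusted p = 1.00). The first 2 of these calls are lost without embryo 2, 3 or 4, and that between Usp42 and Eif2ak1 also without embryo 5.

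In teratomas 6 islands passed the limma test against adult tissue, all of them higher. They are 0.345% of the 1738, where 0.227% of all islands passed, 0.212% higher and 0.0151% lower. Of the 6, 1 lay within 1 kb, 2 at 1 to 10 kb and 3 over 10 kb. The count was 2 without teratoma 1 and 1 without teratoma 2. At chr9:123773503-123774402, beyond Fyco1, an adaptor of autophagosome transport and the last gene probed on that chromosome, adult arrays gave -0.421, -0.0676 and 0.472 and teratomas 2.91 and 2.92, a difference of 2.95 ± 0.37 (SE, adjusted p = 3.94e-05). The undifferentiated lines were at 3.54 (EB5), 0.202 (J1) and 1.47 (TT2), differentiated ES cells at 1.23, 1.6, 1.09, 2.0 and 1.78 and embryos at 0.0713, -0.0784, -0.101, 0.315 and 0.0702. Teratomas and each differentiated array therefore lay above the adult range at this island, as did EB5 and TT2, while embryos and J1 lay within it. At chr13:65255512-65257529, an island of 17 probes between Hiatl1 and Zfp369, adult arrays gave -0.235, 0.0985 and 0.512 and teratomas 0.922 and 1.73, a difference of 1.21 ± 0.183 (SE, adjusted p = 4.22e-04), which was 0.808 (adjusted p = 0.432) without teratoma 2. Differentiated ES cells went the other way here, at -0.031, -0.422, -0.364, -0.462 and -0.475, with a difference of -0.465 ± 0.115 (SE, adjusted p = 0.00333), which was -0.229 (adjusted p = 0.383) under a slide block and -0.227 (adjusted p = 0.285) under a scan day block. At chr6:97452935-97453598, between Arl6ip5 and Frmd4b, adult arrays gave -0.142, -0.0145 and 0.245 and teratomas 0.928 and 1.15, a difference of 1.04 ± 0.199 (SE, adjusted p = 0.00871). That call is lost without teratoma 1 (adjusted p = 0.152) or teratoma 2 (adjusted p = 0.463), and the input was well above background in 40.0% of its teratoma probe readings.

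Among adult tissues few islands passed the test, although levels spread. The 8 tissue means spanned over 1 in 113 islands (6.5%), where 6.19% of all islands did, and these were 25 within 1 kb of a listed start (3.62%), 16 at 1 to 10 kb and 72 over 10 kb (8.43%). By the limma F-test over the 8 tissues 1 island differed, where 0.0906% of all islands did. Against the mean of the other 7 tissues, 22 islands were higher in colon (1.27%), where 0.793% of all islands were called, and 1 was higher in pancreas, where 0.0453% were. None of the 1738 was called lower in colon (0.0378% of all islands) or in pancreas (0.0151%). At an unadjusted p under 0.05 colon had 221 islands, 161 of them higher, and pancreas 89, 62 of them higher. In the other 6 tissues 0 islands were called by limma, with 17 to 63 at an unadjusted p under 0.05. The counts at an unadjusted p are given without the share of all islands. Both colon arrays were scanned on a day of their own, so colon and scan day cannot be told apart. In the 22 islands called higher in colon the differences ranged from 0.543 to 2.82 with a median of 0.868. The island that differed by the F-test was chr4:153886581-153887330, 37 bases from an Ensembl start between Plcl4 and Pex10, a gene of peroxisome biogenesis. The colon arrays were at 2.9 and 2.65, followed by pancreas 2 at 1.76, and the 16 arrays gave -0.705, -0.0896 and 2.9 as lowest, median and highest. Colon exceeded the other tissues by 2.82 ± 0.286 (SE, adjusted p = 6.29e-04), and by 2.70 (adjusted p = 0.0614) without colon 1. The pancreas island was chr15:36084911-36085248, 427 bases from an Ensembl start between Cox6c, a subunit of cytochrome oxidase, and Polr2k, a subunit of RNA polymerases. Pancreas 1 and 2 were at 0.834 and 1.39, and the highest of the other 14 arrays was muscle 2 at 0.346. The difference was 1.3 ± 0.197 (SE, adjusted p = 0.0401), which was lost without pancreas 1 (adjusted p = 0.0934) or pancreas 2 (adjusted p = 0.996), without either colon, brain, kidney or spleen array or liver 1, and in 3 other settings. Sorted β cells were at 0.0971, Min6 at 1.85 and αTC at 1.73.

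The pancreatic cell lines were set beside sorted β cells, with 1 array each and no test. Of 924 islands below 0 in β cells, 94 lay above 0.75 in Min6, 165 in αTC and 79 (8.55%) in both. Over all islands, 8193 were below 0 in β cells, of which 540 lay above 0.75 in Min6, 831 in αTC and 375 (4.58%) in both. Those 375 are 2.83% of the 13238. Of the 79, 19 were below 0 on every adult array. Over 10 kb from a listed start the median IMS was 0.0524 in β cells, 0.143 in Min6 and 0.349 in αTC. Within 1 kb it was -0.140, -0.282 and -0.252, with -0.154, -0.314 and -0.342 over all islands. The share above 0.75 was higher in the lines in both bands. Within 1 kb it was 6.81% in β cells, 17.0% in Min6 and 24.3% in αTC, and over 10 kb it was 21.4%, 31.6% and 36.5%. Over all islands it was 11.9%, 19.6% and 23.2%. The island with the largest smaller-of-both difference was chr7:79381937-79382718, between Polg, the mitochondrial DNA polymerase gene, and Rhcg, an ammonia transporter gene. Its IMS was -1.71 in β cells, 1.31 in Min6 and 1.53 in αTC, and adult arrays gave -1.16, -0.812 and 1.63, the highest being brain 2. The bound signal was well above background in 50.9% of adult and 11.4% of embryo probe readings there. At chr5:127530799-127532165, 3 bases from an Ensembl start between Aacs and Slc15a4, the values were -0.849 in β cells, 2.27 in Min6 and 2.04 in αTC, with adult arrays at -0.817, -0.532 and 0.558. At chr1:172908395-172910289, between Fcgr3a, an immunoglobulin Fc receptor gene, and Sdhc, a subunit of succinate dehydrogenase, they were -0.388 in β cells, 2.36 in Min6 and 2.41 in αTC, and differentiated ES cells were at 1.5, 1.31, 0.514, 0.433 and 0.501. The islands near Nkx6-1 and Lhx5 named above had the same order, with -0.532 in β cells, 1.7 in Min6 and 1.8 in αTC at the first and -0.199 in β cells, 1.4 in Min6 and 1.52 in αTC at the second, whereas the island between Tbx3 and Tbx5 was low in all 3, at -1.06 in β cells, -0.401 in Min6 and -0.704 in αTC.

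Most islands described as Unknown stood alone, and 496 lay in runs. Joined over gaps of at most 50 kb, 1242 (71.5%) had no other beside them, 169 runs held 2, 27 held 3, 7 held 4, and 8 runs held 5 to 8. Within a run, islands a few kb apart could differ widely. In the interval from Hif1an to Pax2, a transcription factor gene of kidney and eye, 8 islands span chr19:44727856-44795154. The first had adult arrays at -1.01, -0.112 and 1.36 and differentiated arrays at 1.52, 0.608, 2.39, 1.15 and 2.1, a difference of 1.51 ± 0.30 (SE, adjusted p = 3.57e-04). The retinoic acid and endoderm 2 arrays lay within the adult range there. The third, 42.8 kb on, was high in all groups, with an adult mean of 1.86 ± 0.545 and differentiated arrays at 1.77, 2.13, 1.99, 1.56 and 0.851. The fourth, next after it, was low in all, with an adult mean of -0.338 ± 0.18 (SD) and differentiated arrays at -0.307, -0.514, -0.45, -0.439 and -0.406.

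The 7 islands between Polg and Rhcg span chr7:79369497-79417177. The third, chr7:79378191-79379052, is 71 bases from an Ensembl start and had an adult mean of 0.0323 ± 0.125, with Min6 at 0.828 and αTC at 1.28. The fourth is the island named above for Min6 and αTC, in which differentiated ES cells were at 0.507, 1.16, 0.323, 0.676 and 0.623, a difference of 1.31 ± 0.302 (SE, adjusted p = 0.00164). All 5 lay within the adult range, whose top is brain 2. Undifferentiated EB5 and TT2 were at similar values, 0.755 and 0.639, and the array labelled J1 was at -1.1. On the shared slides endoderm 2 exceeded pancreas 1 by 1.54, while embryoid bodies minus brain 2 was -1.12. The difference was 0.208 (adjusted p = 0.822) with the slide as a block and 0.958 (adjusted p = 0.30) with the scan day. Embryos there were at -1.39, -1.35, -1.39, -1.62 and -1.07, of which 4 lay below every adult array. The seventh, chr7:79416715-79417177, was also called higher in differentiated ES cells, by 0.881 ± 0.242 (SE, adjusted p = 0.0076), while the other 5 were not called. It was -0.391 (adjusted p = 0.146) with the slide and 0.146 (adjusted p = 0.833) with the scan day, so that neither call of this interval holds with these blocks. Whether any of the 7 is the promoter of Mir9-3 was not tested.

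The 5 islands between the Wnt ligand gene Wnt7b and Ppara, a nuclear receptor gene of fatty acid oxidation, span chr15:85453283-85499940. The third, chr15:85473648-85474189, had adult arrays at -0.402, -0.174 and 0.423 and differentiated arrays at 1.76, 1.16, 1.86, 1.45 and 1.69, a difference of 1.7 ± 0.157 (SE, adjusted p = 3.57e-09). All 5 differentiated arrays lay above the adult range, as did Min6 at 1.5 and αTC at 1.61. Undifferentiated EB5 and TT2 were already above it, at 1.11 and 0.701, while the array labelled J1 was within it, at -0.394. The fourth, chr15:85488419-85488911, had adult arrays at 0.738, 1.95 and 3.09 and embryos at 0.505, 0.551, 0.265, 0.36 and 0.253, a difference of -1.57 ± 0.268 (SE, adjusted p = 2.67e-04) with no overlap of the groups. It was -1.14 (adjusted p = 0.912) with the slide and -0.232 (adjusted p = 1.00) with the scan day as a block. Differentiated ES cells, at 1.7, 1.81, 1.64, 1.44 and 1.72, lay within the adult range at this island. The first and the last island were also called higher in differentiated ES cells, by 0.71 ± 0.162 (SE, adjusted p = 0.0016) and 0.302 ± 0.0879 (SE, adjusted p = 0.0116), and the second was not called. For the last island the difference was 0.238 (adjusted p = 0.194) with the slide and 0.31 (adjusted p = 0.0704) with the scan day, and the call was also lost without endoderm 1 (adjusted p = 0.0837).

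The 6 islands between 2010107E04Rik and AI839735 span chr12:112578052-112626150, in an interval that by RefSeq order holds 16 genes, among them Mir203, a microRNA gene of skin, and Kif26a, a kinesin family gene. The last 4 were high in adult tissue, with means of 2.75 ± 0.345, 2.56 ± 0.243, 2.9 ± 0.215 and 2.94 ± 0.288 (SD, n = 16). In Min6 they were at -0.311, -0.0896, 0.196 and 0.507, in αTC at 1.88, 1.55, 1.73 and 1.59, and in β cells at 2.01, 1.83, 1.89 and 2.27. Min6 and αTC lay below the lowest adult array in each of the 4 and β cells in the last 3, with 1 array each and no test. These arrays were also lower at the islands between Vrk1 and A130014H13Rik and between Tcfcp2l1 and Inhbb. There αTC was at 2.08 and 2.05, Min6 at 2.301 and 2.085 and β cells at 2.372 and 2.355. The lowest adult arrays were at 2.98 and 2.81. Whether αTC and β cells are low in this interval in particular was not tested. The third was also called lower in differentiated ES cells, with a difference of -0.612 ± 0.164 (SE, adjusted p = 0.00633), which was -0.342 (adjusted p = 0.478) with the slide and -0.515 (adjusted p = 0.174) with the scan day as a block. The first was called higher, by 0.358 ± 0.105 (SE, adjusted p = 0.0121), a call lost without embryoid bodies (adjusted p = 0.0524) or without mesoderm (adjusted p = 0.057). The intervals were picked after their values were seen.

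**Figure D5:**
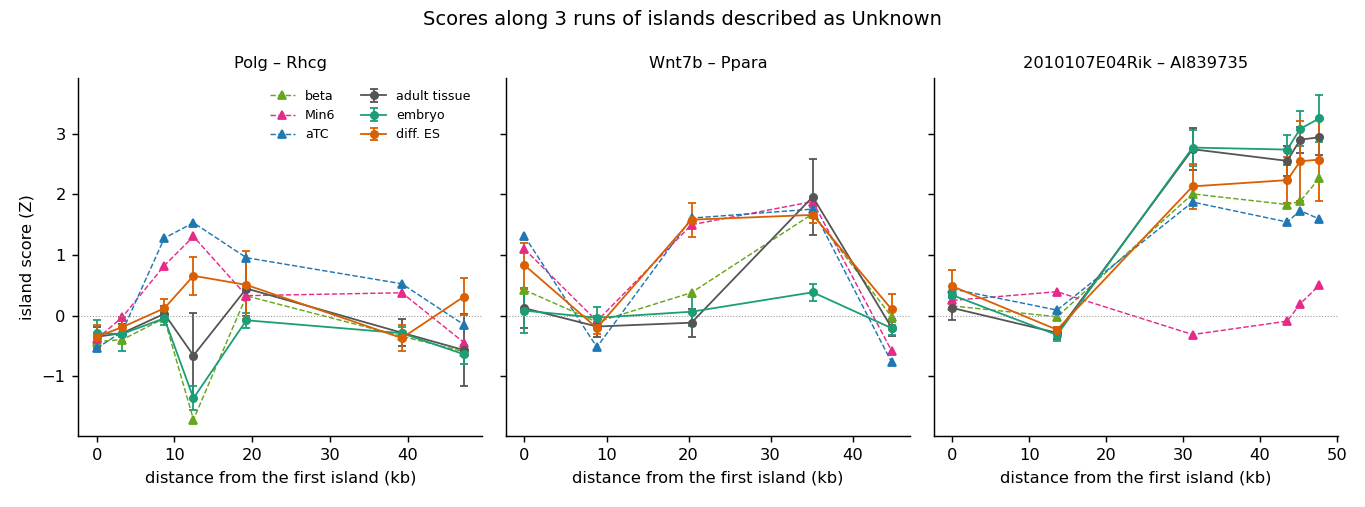
IMS (y axis) of consecutive islands in 3 intervals against the distance in kb from the first island (x axis). Circles give the mean and SD of adult tissue, embryos and differentiated ES cells, and triangles the single arrays of β cells, Min6 and αTC. Differentiated ES cells stand above adult tissue at the third island of Wnt7b to Ppara, embryos stand below it at the fourth of Wnt7b to Ppara, and Min6 stays near 0 in the last 4 islands of 2010107E04Rik to AI839735.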

How the data were processed

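Log10 ratios of bound (Cy5) over input (Cy3) DNA for 34 arrays were deposited as scanner output. Per the file headers, Agilent Feature Extraction had subtracted the background and normalised the dyes linearly. The authors also deposited a value table of Z-scores, which by their methods were set by the melting temperature of the probe and which lack many probes, so this score served as an alternative. Deposited spot and background intensities gave the signal over background. The probe descriptions are filled in 1 of the scanner files. The genome build is not given in the sources used here.

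Control and outlier probes and 492 probes without a chromosome were left out, the log10 ratios were turned into Z-scores within each array with no further normalisation, and probes were averaged into islands. Groups were fitted together in limma 3.58.1 (lmFit and eBayes, R 4.3.3), adult tissues alone among themselves, with Benjamini-Hochberg adjustment over all 13238 islands. Tables and figures were made in Python 3.11.15 with pandas 2.3.3, numpy 2.4.6 and matplotlib 3.10.9. The fits were checked on simulated data. No block for replicate, slide or day was used in these fits.

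The islands named were, by the fit, the 5 largest gains and 3 largest drops in differentiated ES cells, 3 gains and 2 drops in embryos, the 2 largest differences in undifferentiated ES cells, 3 in teratomas and 1 for each tissue with a call, with the 3 highest and 3 lowest adult means and the 3 islands with the largest excess of both Min6 and αTC over β cells. One island that this rule names is not reported here. The members and the lists were chosen with earlier results of these data known. The alternatives tried were the value table, normexp background correction, removal of probes whose input was not well above background, the median of probes, 5 probes, a gap of 250 bases, centred log2 ratios, X and Y kept, other thresholds, slide, day and replicate blocks, fewer groups, the methods' t-test and leaving out each array.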

Additional observations from a re-analysis of the deposited data

Results flagged for a closer look

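Among 60 sets of 5 arrays of 1 group, 6 had an array far from the other 4 by Dixon's test, and chance gives about 1 set in 20. At the island between Wnt10a and Cdk5r2 the retinoic acid array was at -0.411, where the other differentiated ES arrays were at 1.52 to 1.86. At the island near Nkx6-1 the retinoic acid array was at 0.413, where the others were at 1.84 to 2.18. At the island between Hiatl1 and Zfp369 the embryoid bodies were at -0.0310, where the other differentiated arrays were at -0.475 to -0.364. At the island between Plcl4 and Pex10 embryo 1 was at -0.0544, where the other embryos were at -0.770 to -0.566. At the island between Fcgr3a and Sdhc embryo 4 was at -0.0186, where the other embryos were at -0.254 to -0.190. The count of islands that were below 0 on every adult array and crossed 0.75 was 1 in embryo 2 and 0 in the other embryos.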

How the results depend on the processing

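With the deposited value table, which scores 687 of the 1738 islands, 192 islands passed the test between differentiated ES cells and adult tissue, 193 between undifferentiated ES cells and adult tissue, 48 between embryos and adult tissue, 146 between differentiated ES cells and embryos and 3 among tissues. It put 234 islands below 0 and 42 above 0.75 on every adult array, with 12 that crossed from the low to the high class in differentiated ES cells and 27 in both pancreatic lines. Normexp background correction gave 345, 1, 9 and 157 calls in the first 4 comparisons, 17 between differentiated and undifferentiated ES cells, and 65 islands above 0.75. With probes whose input was well above background on every array (1048 islands), the counts were 308, 30, 66, 269 and 101, with 2 among tissues, 48 above 0.75 and 48 in the lines. With at least 5 probes (1016 islands) they were 282, 24, 71, 237 and 85, with 3 in teratomas, 51 above 0.75 and 51 in the lines. These filters leave fewer islands. The counts in this section are given without the share of all islands called in the same setting. They therefore compare only with other counts of these islands.

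The share of higher calls in differentiated ES cells against adult tissue was 69.7%, and 87.2% (301 higher, 44 lower) after normexp. Against embryos it was 73.4%, 93.6% after normexp and 62.6% with centred log2 ratios. Against undifferentiated ES cells it was 72.7%, and 44.9% (89 higher, 109 lower) with the value table. For undifferentiated ES cells against adult tissue it was 50%, and 73.6% (142 higher, 51 lower) with the value table. For embryos it was 44.5%, 33.3% (3 higher, 6 lower) after normexp and 54.9% (56 higher, 46 lower) with the positions of the other 6 files. In teratomas normexp gave 5 higher and 2 lower.

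Centred log2 ratios gave 0 calls by limma for undifferentiated ES cells against adult tissue (162 at an unadjusted p under 0.05), 43 between differentiated and undifferentiated ES cells and 0 among tissues (154). The methods' t-test gave 0 calls after Benjamini-Hochberg adjustment in these 3 comparisons, with 311, 273 and 93 at an unadjusted p under 0.05. With only the compared groups fitted the first 2 gave 25 and 0 (328), and with all groups 4 islands differed among tissues. The slide as a block gave 1 call in embryos (112), 39 between differentiated and undifferentiated ES cells and 22 between differentiated ES cells and embryos. The scan day gave 0 in undifferentiated ES cells (80), 0 in embryos (91) and 74 between differentiated ES cells and embryos, and a random slide block gave 49 in embryos. Neither slide nor day as a fixed block could be fitted for teratomas or tissues. Thresholds of -0.25 and 0.5 left 68 islands in the low class and 2 that crossed to the high one. The difference in embryos turned to -0.00499 at the island between Lig4 and Col4a1 with the scan day, and to -0.178 with the scan day and -1.49 with the slide at that between Usp42 and Eif2ak1. The cause of these changes was not tested.

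Leaving out 1 array at a time gave 447 to 590 calls in differentiated ES cells against adult tissue, 368 to 529 against embryos, 93 to 276 against undifferentiated ES cells, 0 to 166 in undifferentiated ES cells, 65 to 126 in embryos (65, 69 and 68 without embryo 2, 3 and 4), 1 to 6 in teratomas and 0 to 2 among tissues (0 without either array of colon, kidney or lung). It put 375 to 418 islands below 0 and 149 to 161 above 0.75 on the remaining adult arrays, and 17 to 25 crossed. Deviations of equal-numbered adult arrays correlated with r from -0.32 to 0.488 over 28 pairs of tissues, with a median of 0.056 and 11 pairs over 0.1. Arrays of equal number thus deviated together in some pairs of tissues but not in all. The replicate block was fitted only among tissues, where it left 1 call (90 at an unadjusted p under 0.05). The positions of the other 6 files, the fits without J1, the settings tried on the pancreatic lines and the counts of crossing islands without 1 differentiated array were chosen after seeing the data. For named islands, 349 values kept direction and side of the threshold or stayed within the spread, 51 lost the call, 9 moved and 3 reversed.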
